A study of Homo sapiens with 3 samples.

Results

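The genes described here are 42 human genes of DNA damage signalling and DNA repair, chosen by name from the 63241 genes of a ribosome profiling table, with earlier results of these libraries known. Ribosome profiling (Ribo-seq) sequences the short mRNA fragments that ribosomes protect from nuclease, so that footprint counts report how much of a gene's mRNA was occupied by ribosomes. The libraries came from HEK293T, an established line of human embryonic kidney cells in which large T antigen from the virus SV40 binds p53. Its cells expressed wild-type p53 (WT), p53 G245S or p53 R273H, the latter 2 being hotspot mutants of the DNA-binding domain, and 3 dishes of 10 cm were profiled for each group. All groups received cycloheximide for 2 min, were kept in buffer with 100 μg/mL of it, and were treated with 3 U of micrococcal nuclease per μg of RNA for 30 min. The study's methods describe lines made by lentiviral integration and puromycin selection, whereas the labels call the cells both stable and transient and name the wild-type construct in the treatment entry of the mutants. Groups were therefore taken from the sample titles. Each group is 1 line, whether it is clonal is not stated, and cells without a construct were not analysed here. The 3 dishes of a group were pooled at reverse transcription, so that group and pool cannot be told apart in any comparison between groups.

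DNA damage is read by large kinases. ATM and DNA-PKcs respond to double-strand breaks and ATR responds to single-stranded DNA at stalled replication forks, and they pass the signal to the kinases CHK1 and CHK2 and to p53 itself. Breaks are then joined directly by the Ku and DNA-PK machinery or repaired by homologous recombination with BRCA1, BRCA2 and their partners, while the Fanconi proteins unhook crosslinks between DNA strands and the mismatch repair proteins correct replication errors. Many of these genes are expressed most in S phase under E2F transcription factors, and p53 can lower such genes indirectly through p21.

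The E2F link is one that promoter sequence can be searched for. RefSeq promoter windows (GRCh38.p14, from 250 bases before to 50 bases after the start) were at hand for 38 of the 42 genes, all but NBN, FANCI, XRCC5 and PRKDC. One of the E2F-type words TTTCCCGC, TTTCGCGC, TTTGCCGC or TTTGGCGC, on either strand, was found in 11 of the 38 windows (28.9%), against 908 of 27305 promoters in the table (3.33%) and 598 of 10786 promoters of tested genes with a coding region (5.54%). The 30 bases around the match nearest to the start are shown for 8 of the 11, in capitals where the letters match, to let the words be compared. The first 6 genes were called in at least 1 mutant, as described below, and CLSPN and MSH3 were not.
MSH6, chr2:47783137-47783166, plus strand: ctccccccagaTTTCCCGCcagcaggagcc
EXO1, chr1:241848197-241848226, plus strand: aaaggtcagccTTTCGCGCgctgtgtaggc
FANCD2, chr3:10026424-10026453, plus strand: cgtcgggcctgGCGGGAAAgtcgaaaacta
TOPBP1, chr3:133661930-133661959, minus strand: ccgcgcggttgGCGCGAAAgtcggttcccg
FANCA, chr16:89816801-89816830, minus strand: actacaccgcgGCGGCAAAgccaaacgcaa
XRCC6, chr22:41621315-41621344, plus strand: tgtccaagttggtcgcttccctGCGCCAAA
CLSPN, chr1:35769965-35769994, minus strand: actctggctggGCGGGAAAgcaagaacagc
MSH3, chr5:80654538-80654567, plus strand: ggtcaagTTTGGCGCGAAAttgtggccgcc

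In MSH3 the capitals cover 2 overlapping matches. The word spanned the start in TOPBP1, CLSPN and FANCD2, where its first base was base -7, -5 and -2 (negative positions lie before the start). Its first base was base 4 after the start in MSH6 and base 5 in EXO1. The other genes with a match, whose sequences are not shown, were XRCC2, FANCC and PMS2, and none of them was called in either mutant. Of the other words searched on both strands, CCAAT was found in 19 of the 38 windows (50%). Its share was 35.7% of all promoters and 37.2% of promoters of tested genes with a coding region. The CHR words TTTGAA and TTCGAA were in 4 windows (10.5%), against 16.6% of all promoters and 11% of those of tested genes with a coding region. The p53 response element, searched by its consensus, was in 0 of the 38 windows and in 8 of 27305 (0.0293%). A search that matches so few promoters cannot tell whether these genes have such an element. A match of letters is a description of the sequence and not evidence of binding.

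The 9 libraries held 18.7 to 24.6 M counts, and CPM below means a count scaled for library depth with TMM factors. As a check of the labels, MDM2, the p53 target that degrades p53, had a mean of 860 CPM in WT and 76.8 CPM in G245S and 76.7 CPM in R273H, and CDKN1A, which encodes p21, had 61.1, 16.1 and 13.9 CPM. The 7 markers of HEK293T cells summed to 1490 to 1576 CPM in every library. Most of this sum came from VIM (875 to 997 CPM). The lowest of the 7 was PAX2 (5.01 to 8.24 CPM), below COL1A1, a marker of other cell types (25.0 to 34.0 CPM). Of 6 markers of other cell types, CD3E and HBB had no count in any library, PTPRC and ALB had at most 3 counts, and the summed level of 26.3 to 35.9 CPM came mostly from COL1A1. Relative to the mean of all libraries, genes with long coding regions stood higher in the R273H libraries (Spearman's rho across 10886 coding genes 0.139 to 0.195) than in G245S (-0.0115 to 0.116) and WT (-0.177 to -0.14). The same correlation with GC content was -0.424 to -0.14 in R273H, -0.185 to 0.344 in G245S and -0.183 to 0.261 in WT. It thus differed between dishes of a group as well. The length trend bears on genes as long as the ones described here. Counts from a fit free of both the length and the GC trend are given further on.

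In each mutant the damage and repair genes shifted by small amounts, and more of them rose than fell. Against WT, 17 of the 42 genes were called in G245S, 12 higher and 5 lower, where called means a Benjamini-Hochberg adjusted p under 0.05 in edgeR's quasi-likelihood test over the 19820 genes tested. The background was 24.7% of genes called, 12.6% higher and 12.1% lower, beside 28.6% (12) and 11.9% (5) of the 42 genes. In R273H, 20 genes were called, 15 higher (35.7%) and 5 lower (11.9%), against a background of 28.8%, with 14.2% higher and 14.6% lower. The median log2 fold change of the 42 genes was 0.04 in G245S and 0.07 in R273H, beside -0.00069 and -0.0024 for all genes tested. All 42 passed the filter on low counts, and they are well covered genes, with a median of 66.8 CPM beside 11.05 CPM for the genes tested. Among genes that average 100 counts or more, where small changes are easier to call, the background was 36.9% for G245S, with 19.1% higher and 17.8% lower, and 18 of the 41 members in that range were called, 12 higher and 6 lower. For R273H it was 40.7%, with 20.4% higher and 20.3% lower, and 21 members were called, 16 higher and 5 lower. Both comparisons use the same WT dishes and are not independent. A fold change is measured against the rest of its library, and in a bulk lysate fewer cells expressing a gene and less occupied mRNA per cell cannot be told apart.

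**Figure D1:**
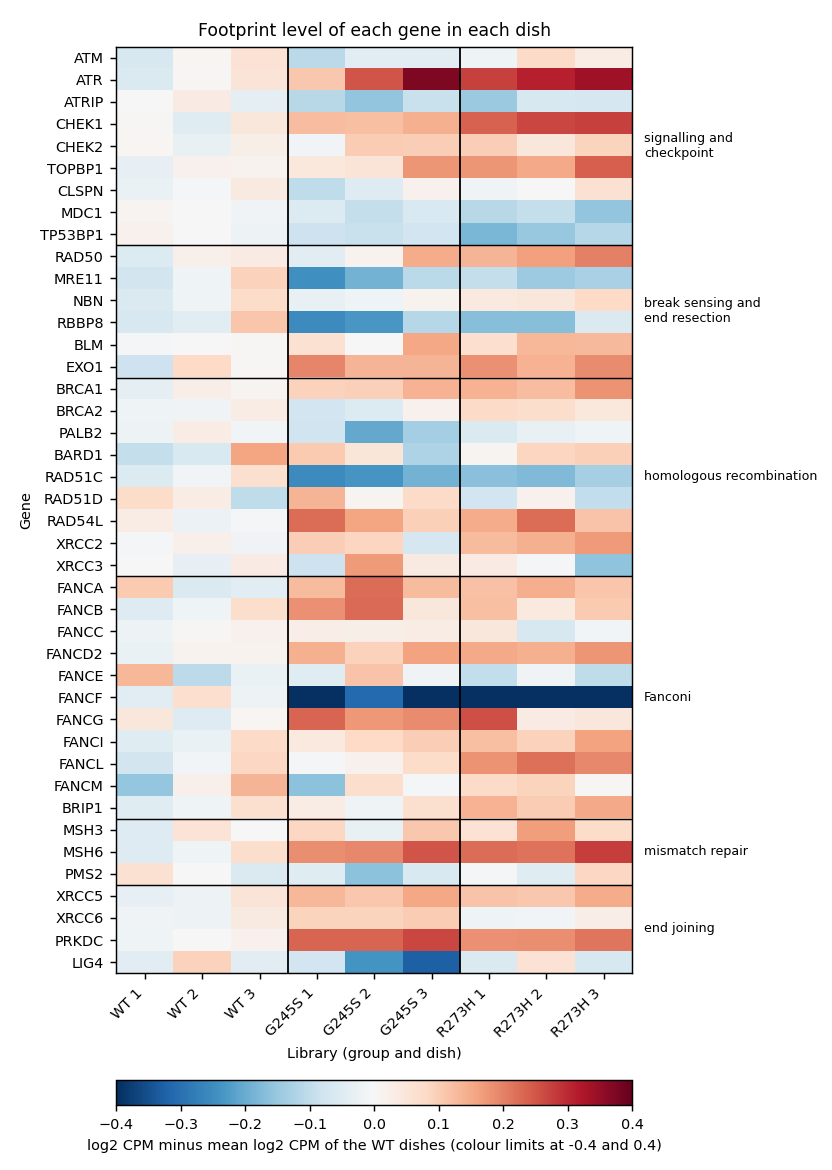
Level of each of the 42 genes (rows, by role) in each of the 9 dishes (columns), as log2 CPM minus the mean of the WT dishes, with colours limited at -0.4 and 0.4. ATR, MSH6 and PRKDC are above the WT mean in every mutant dish, RAD51C and FANCF are below it in every mutant dish, and most other genes are pale.

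Per dish, the median of the 42 deviations from the WT mean was -0.03 to 0.02 on the log2 scale in WT, 0.03 to 0.05 in G245S and 0.07 to 0.08 in R273H. The 3 groups did not overlap on this median, but the margin between WT and G245S was narrow. The highest WT dish was at 0.0193 and the lowest G245S dish at 0.0280, beside a pooled SD of the dish medians of 0.0164. The order of the mutants was not kept in the fit free of the length and GC trend, whose medians over the 42 genes were 0.05 for G245S and 0.03 for R273H. No gene rose by more than 1.24-fold in either mutant, and the largest decrease was in FANCF.

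Footprint density (CPM per kb of coding length) allows levels to be compared between genes. The highest density in WT was that of the Ku subunits, with 610 ± 13.2 CPM per kb for XRCC6 and 338 ± 10.5 for XRCC5 (mean ± SD over 3 dishes), followed by RAD51C (103 ± 4.28) and MSH6 (91.6 ± 3.99). The SDs of XRCC6, XRCC5 and RAD51C leave those 3 well apart. ATM, at 6.11 ± 0.260 CPM per kb, was among the lowest, close to LIG4 (6.06 ± 0.340), from which it did not differ beyond the spread of dishes. Lowest of all was FANCF at 3.15 ± 0.129 CPM per kb. Among the apical kinases, PRKDC (67.1 ± 0.784) stood far above ATR (11.6 ± 0.437) and ATM. The downstream kinases CHEK1 (69.9 ± 2.29) and CHEK2 (52.9 ± 0.962) were both denser than ATR and ATM in WT.

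**Figure D2:**
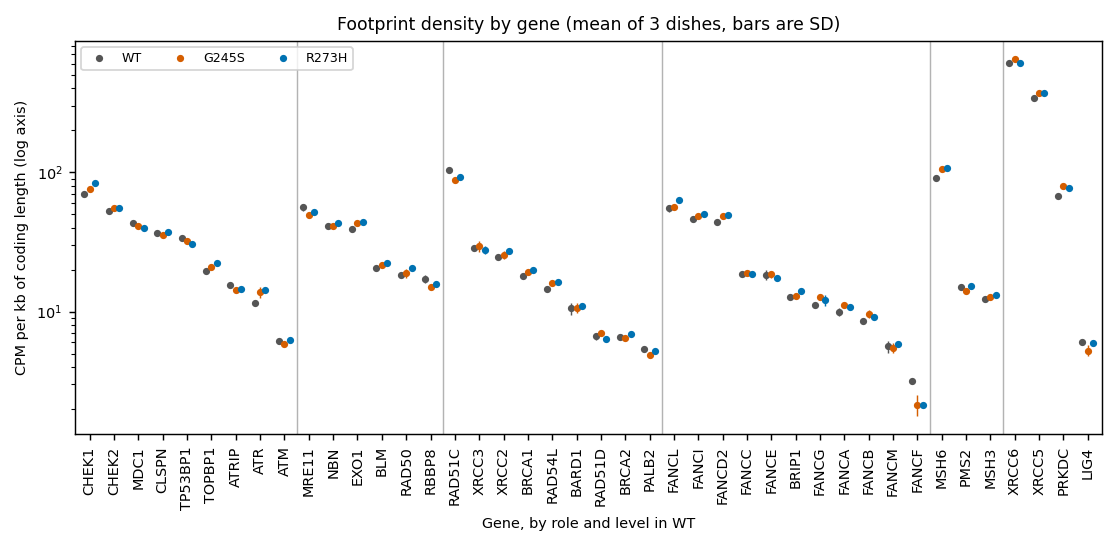
Footprint density of each gene in CPM per kb of coding length (log axis), as the mean of 3 dishes with SD bars, grouped by role and ordered by the WT level. The 42 genes span from about FANCF at 3.15 to XRCC6 at 610 CPM per kb in WT, and the shifts between groups are small beside the differences between genes.

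For the counts by role that follow, the background was 12.6% of genes higher and 12.1% lower in G245S and 14.2% and 14.6% in R273H. In the fit free of the length and GC trend, 21.1% of genes rose and 16.2% fell in G245S. For R273H that fit gave 21.3% and 17.4%. Of the 9 signalling and checkpoint genes, 2 rose and 1 fell in G245S, and 3 rose and 2 fell in R273H. With the length and GC trend taken out, the G245S counts were 3 higher and 3 lower. ATR and CHEK1 were among those that rose, and ATM and CHEK2 were not called. ATR (chr3:142449007-142578733, the kinase of stalled forks) was at 88.3, 92.0 and 95.2 CPM in the WT dishes, 98.8, 109 and 119 CPM in G245S, and 111, 114 and 116 CPM in R273H. Every mutant dish was above every WT dish, and the G245S dishes were the most spread. Its log2 fold change was 0.25 ± 0.05 (SE) in G245S (edgeR adjusted p = 0.0025) and 0.31 ± 0.05 in R273H (adjusted p = 0.00034), the largest increase of any member in each mutant. CHEK1 (chr11:125625163-125676255), which encodes the CHK1 kinase that ATR activates, had 100.1, 96.4 and 103 CPM in WT, 109, 108 and 110.2 CPM in G245S and 118, 120.0 and 120.5 CPM in R273H. The dishes fell into 3 separate ranges, WT lowest and R273H highest. CHEK1 rose by 0.13 ± 0.03 on the log2 scale in G245S (edgeR adjusted p = 0.0052) and by 0.26 ± 0.03 in R273H (adjusted p = 5.1e-07). TOPBP1, the activator of ATR, rose in R273H (log2 fold change 0.19, edgeR adjusted p = 0.00034) and had 0.09 in G245S (adjusted p = 0.079). Without G245S dish 1 it passed there, at an adjusted p of 0.0465. ATRIP, the partner that brings ATR to single-stranded DNA, had log2 fold changes of -0.12 and -0.09 and was not called, and CLSPN, which holds CHK1 near ATR, had -0.04 and 0.02.

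ATM (chr11:108223044-108369102), the kinase of double-strand breaks, had 53.6, 56.3 and 58.3 CPM in WT, 51.9, 54.3 and 54.3 CPM in G245S and 55.4, 59.1 and 57.2 CPM in R273H. The ranges overlapped, and the log2 fold changes of -0.07 ± 0.04 and 0.03 ± 0.04 were not called (edgeR adjusted p = 0.31 and 0.65). CHEK2 (chr22:28687743-28742422), whose product CHK2 is a target of ATM, had 86.5, 84.4 and 87.4 CPM in WT, 85.4, 92.4 and 92.2 CPM in G245S and 92.1, 88.9 and 91.6 CPM in R273H. Its R273H dishes lay above the WT dishes by a narrow margin, and neither change was called (0.06 ± 0.04, edgeR adjusted p = 0.22, and 0.08 ± 0.04, adjusted p = 0.11). CHEK2 has 6 annotated pseudogenes that can share reads with it.

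The mediators 53BP1 and MDC1 had lower footprint counts in the mutants. TP53BP1 (chr15:43403061-43510728), which encodes 53BP1, a factor that shields break ends from resection, had 204, 201 and 198 CPM in WT, 189.6, 189 and 190.4 CPM in G245S and 177, 181 and 186 CPM in R273H. All mutant dishes were below all WT dishes. The log2 fold change was -0.15 ± 0.03 in R273H (edgeR adjusted p = 0.00013) and -0.08 ± 0.03 in G245S (adjusted p = 0.027). In G245S that call was lost when WT dish 1, WT dish 2 or any one of the G245S dishes was left out (adjusted p 0.0528 to 0.0949), and also with DESeq2 (0.0655). MDC1 (chr6:30699807-30717447), the adaptor that binds phosphorylated H2AX, had 273.002, 271 and 269 CPM in WT, 261, 254 and 260.0 CPM in G245S and 251, 254 and 243 CPM in R273H. Again no mutant dish reached a WT dish, with log2 fold changes of -0.12 ± 0.03 in R273H (edgeR adjusted p = 0.00068) and -0.07 ± 0.03 in G245S (adjusted p = 0.051). The G245S difference lay at the threshold: it was called among genes averaging 100 counts or more (adjusted p 0.0352) and with the trend taken out (0.0229).

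**Figure D3:**
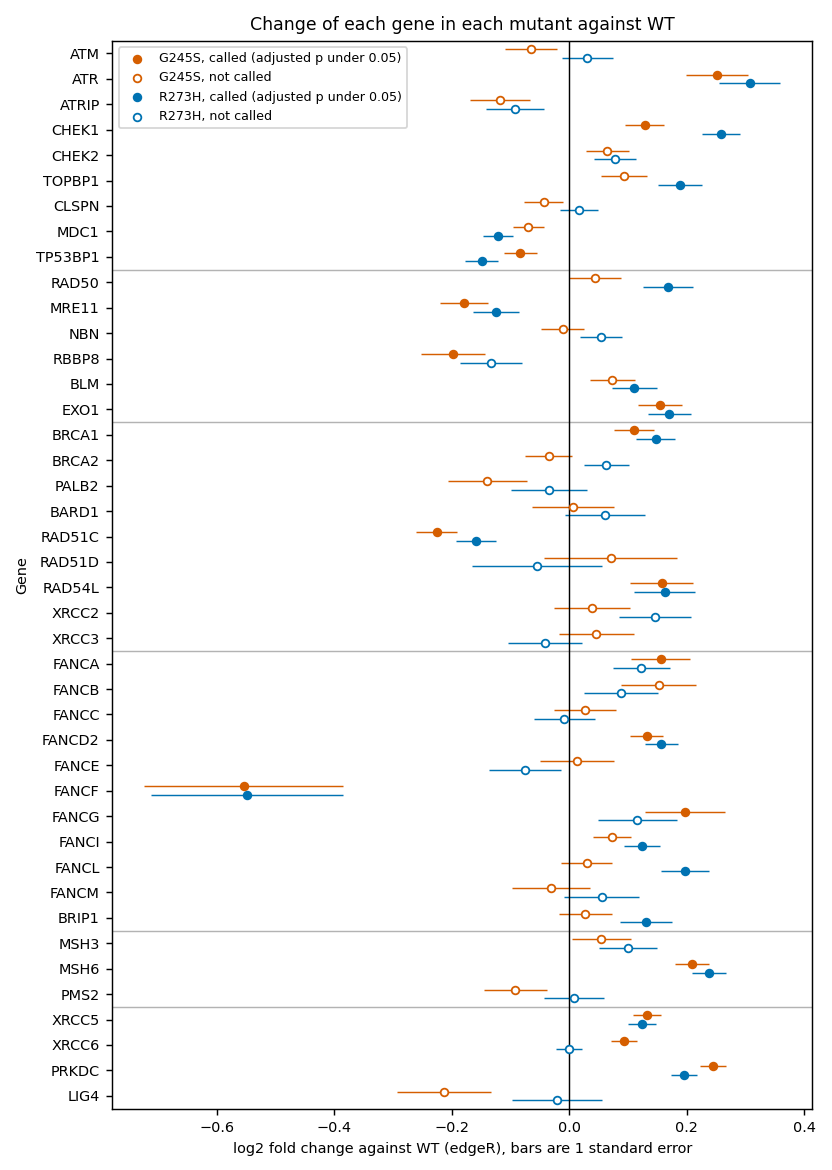
log2 fold change of each gene against WT in G245S (orange) and R273H (blue), with 1 standard error from edgeR. Filled circles are called at an adjusted p under 0.05. Grey lines separate the roles. FANCF lies near -0.55 in both with the widest bars of the called genes, and all other called changes lie between -0.23 and 0.31.

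Of the 6 genes of break sensing and end resection, 1 rose and 2 fell in G245S, and 3 rose and 1 fell in R273H (2 and 2 with the trend taken out). MRE11, RAD50 and NBN form the MRN complex that binds and trims break ends. MRE11 (chr11:94415570-94493885), its nuclease, had 113, 118 and 127 CPM in WT, 100.3, 104.5 and 110.4 CPM in G245S and 111, 108 and 109 CPM in R273H. No mutant dish reached the lowest WT dish. The decrease was -0.18 ± 0.04 on the log2 scale in G245S (edgeR adjusted p = 0.0016) and -0.13 ± 0.04 in R273H (adjusted p = 0.017). In R273H it was lost without WT dish 3 (log2 fold change -0.08, adjusted p 0.154), R273H dish 2 (0.0741) or R273H dish 3 (0.059), and with DESeq2 (0.0608). RAD50, the ATPase that tethers the ends, rose in R273H (0.17 ± 0.04, edgeR adjusted p = 0.0037) and had 0.04 in G245S, and NBN, the scaffold that recruits ATM, had -0.01 and 0.05 with neither called.

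RBBP8 (chr18:22798261-23026488) encodes CtIP, the cofactor with which MRE11 starts resection, and had 44.3, 44.9 and 50.02 CPM in WT, 38.8, 39.5 and 42.8 CPM in G245S and 41.2, 41.2 and 44.5 CPM in R273H. The G245S dishes were all below WT, whereas R273H dish 3 overlapped the WT range. RBBP8 fell in G245S (-0.20 ± 0.05, edgeR adjusted p = 0.0078), but not without WT dish 3 (-0.14, adjusted p 0.0781) or G245S dish 1 (0.0512). In R273H it had -0.13 ± 0.05 (adjusted p = 0.059) and passed without WT dish 1 (0.039) or R273H dish 3 (0.0331). EXO1, a 5′ to 3′ exonuclease of long-range resection, rose by 0.15 ± 0.04 in G245S (edgeR adjusted p = 0.0028) and 0.17 ± 0.04 in R273H (adjusted p = 0.00073). BLM, a helicase that unwinds ends for resection, rose in R273H (0.11, adjusted p = 0.027), a call lost without WT dish 1 or 2 or R273H dish 2 or 3 (adjusted p 0.0705 to 0.104), and had 0.07 in G245S.

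In the homologous recombination group of 9, 2 genes rose and 1 fell in each mutant. BRCA1 (chr17:43044295-43170245), which promotes resection of break ends, had 97.6, 102 and 100.9 CPM in WT, 107, 107 and 110.3 CPM in G245S and 110.3, 109 and 113 CPM in R273H. The WT dishes were the 3 lowest. The increase was 0.11 ± 0.03 on the log2 scale in G245S (edgeR adjusted p = 0.016) and 0.15 ± 0.03 in R273H (adjusted p = 0.0011), and in G245S it was lost without WT dish 1 (0.0841) or G245S dish 3 (0.0568). BRCA2 (chr13:32315086-32400268), a central mediator of recombination at single-stranded DNA, had 66.9, 67.0 and 69.1 CPM in WT, 64.2, 65.1 and 68.5 CPM in G245S and 71.3, 71.0 and 69.6 CPM in R273H. WT and G245S overlapped and R273H lay just above WT, and neither log2 fold change was called (-0.04 ± 0.04, edgeR adjusted p = 0.57, and 0.06 ± 0.04, adjusted p = 0.23).

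RAD54L (chr1:46246461-46278480), a motor protein of strand invasion, had 33.1, 31.9 and 32.3 CPM in WT, 37.9, 36.1 and 34.6 CPM in G245S and 35.9, 37.8 and 35.1 CPM in R273H. All mutant dishes exceeded all WT dishes, and the log2 fold change was 0.16 ± 0.05 in each (edgeR adjusted p = 0.030 and 0.018). The G245S call was lost without WT dish 2 or 3 or G245S dish 1 or 2 (adjusted p 0.0571 to 0.13) and the R273H call without WT dish 2 (0.0717) or R273H dish 2 (0.105). RAD51C (chr17:58692573-58735611), which supports filament assembly on single-stranded DNA, was the member that fell in this group, with 112, 115 and 121 CPM in the WT dishes, 97.3, 98.6 and 102 CPM in G245S, and 103, 103 and 106 CPM in R273H. The groups did not overlap. Its log2 fold change was -0.23 ± 0.04 in G245S (edgeR adjusted p = 1.7e-05) and -0.16 ± 0.03 in R273H (adjusted p = 0.00073). RAD51D, XRCC2 and XRCC3, which act with RAD51C in related complexes, had values of -0.05 to 0.15 over both mutants and were not called. PALB2, which links BRCA1 to BRCA2, and BARD1, the partner of BRCA1, were not called either, at -0.14 and -0.03 and at 0.01 and 0.06.

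**Figure D4:**
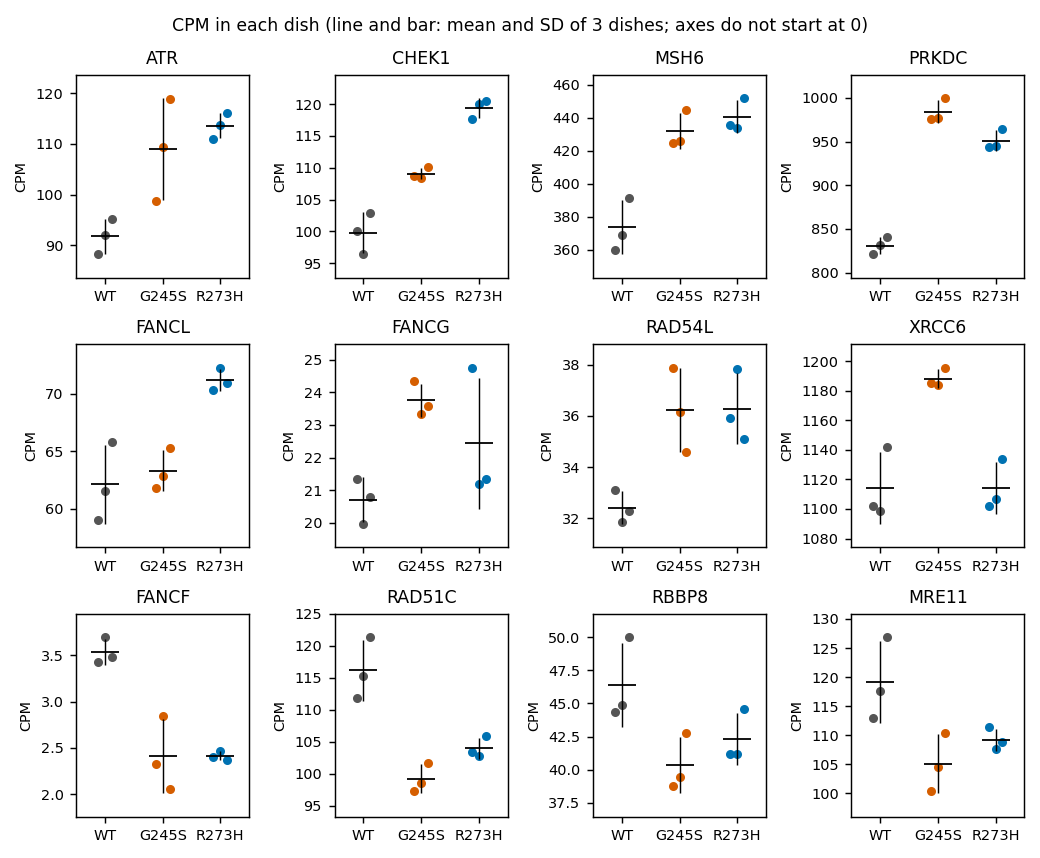
CPM of 12 genes in each dish, with the mean and SD of 3 dishes as a line and bar, on axes that do not start at 0. The upper row and RAD54L show mutant dishes above the WT dishes, the bottom row shows WT above G245S, and XRCC6 and FANCL show 1 mutant apart from the other 2 groups.

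Among the 11 Fanconi genes, 3 rose and 1 fell in G245S (5 and 1 with the trend taken out), and 4 rose and 1 fell in R273H. FANCF (chr11:22622533-22625823), a single-exon gene for an adaptor of the core complex, had the largest change of the 42 genes and the fewest reads, with a mean count of 58.1 and 43 counts in its lowest library. It stood at 3.42, 3.70 and 3.48 CPM in WT, 2.33, 2.85 and 2.055 CPM in G245S and 2.40, 2.47 and 2.37 CPM in R273H. No mutant dish reached the WT range. The log2 fold change was -0.55 ± 0.17 in G245S (edgeR adjusted p = 0.016) and -0.55 ± 0.16 in R273H (adjusted p = 0.012). DESeq2 gave adjusted p-values of 0.12 and 0.108, and the G245S call was also lost without WT dish 2 (0.0574), G245S dish 1 (0.0525) or G245S dish 3 (0.098).

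The central substrate of the pathway, FANCD2, rose by 0.13 ± 0.03 in G245S (edgeR adjusted p = 0.00078) and 0.16 ± 0.03 in R273H (adjusted p = 7.4e-05). Its partner FANCI rose in R273H (0.12, adjusted p = 0.0035) and had 0.07 in G245S, where it passed without WT dish 3 (log2 fold change 0.12, adjusted p 0.00728). FANCL (chr2:58159243-58241410), the ubiquitin ligase that modifies both, had 59.0, 61.6 and 65.8 CPM in WT, 61.8, 62.8 and 65.3 CPM in G245S and 70.3, 72.3 and 70.9 CPM in R273H. G245S dishes lay within the WT range and R273H dishes above it. FANCL rose in R273H (0.20 ± 0.04, edgeR adjusted p = 0.00055) and had 0.03 ± 0.04 in G245S (adjusted p = 0.67).

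FANCG (chr9:35073835-35080004), a core complex scaffold, had 21.3, 20.0 and 20.8 CPM in WT, 24.3, 23.3 and 23.6 CPM in G245S and 24.8, 21.2 and 21.3 CPM in R273H. The G245S dishes were clear of WT. In R273H, dish 1 was clear of WT, dish 2 lay within the WT range, and dish 3 was level with the highest WT dish (21.348 and 21.344 CPM). FANCG rose in G245S (0.20 ± 0.07, edgeR adjusted p = 0.034), but the call was lost without WT dish 2 or 3 or any one of the G245S dishes (adjusted p 0.0581 to 0.125), and R273H had 0.12 ± 0.07 (adjusted p = 0.20). FANCA, another core subunit, rose in G245S (0.16 ± 0.05, adjusted p = 0.021) and had 0.12 ± 0.05 in R273H (adjusted p = 0.059). Without WT dish 2, WT dish 3 or G245S dish 2 the G245S call was lost (adjusted p 0.073 to 0.117), and without WT dish 1, the highest of WT, R273H was called (0.18, adjusted p 0.0124). FANCA overlaps ZNF276 on the opposite strand, and how strand was handled in counting is not stated. It is among 22 members that overlap an annotated coding gene. On the opposite strand, others are MDC1 (TUBB), TP53BP1 (TUBGCP4), MSH6 (FBXO11), FANCF (GAS2), FANCI (POLG) and FANCL (VRK2). CHEK1 overlaps STT3A and ATRIP overlaps TREX1 on the same strand. BRIP1, the helicase partner of BRCA1, rose in R273H (0.13, edgeR adjusted p = 0.026), a call lost without WT dish 1 or 2 or R273H dish 1 or 3 (adjusted p 0.0723 to 0.124). FANCB had 0.15 in G245S (adjusted p = 0.086, and 0.0286 without G245S dish 3) and 0.09 in R273H. FANCC, FANCE and FANCM, with values of -0.08 to 0.06 over both mutants, were not called.

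Of the 3 mismatch repair genes, MSH6 rose in each mutant and the others were not called. MSH6 (within chr2:47695530-47810063), which takes part in the recognition of base mismatches, had 360.1, 369 and 392 CPM in WT, 425, 426 and 444 CPM in G245S and 435.5, 434 and 452 CPM in R273H. The lowest mutant dish was above the highest WT dish. The log2 fold change was 0.21 ± 0.03 in G245S (edgeR adjusted p = 3.5e-06) and 0.24 ± 0.03 in R273H (adjusted p = 3.3e-07). MSH3, which takes part in the recognition of larger loops, had 0.05 and 0.10. PMS2, a nuclease of mismatch repair, had -0.09 and 0.01, and 13 annotated pseudogenes make its count uncertain.

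The 4 end joining genes included the lowest adjusted p-values of the 42 genes, and 3 rose in G245S and 2 in R273H (with the trend taken out, LIG4 was also called, lower, in G245S). PRKDC, on chromosome 8, encodes the catalytic subunit of DNA-PK and has the longest coding region of the 42 genes, 12384 nt. It had 821, 831 and 840.4 CPM in WT, 976, 977 and 999.9 CPM in G245S and 943.5, 945 and 964.5 CPM in R273H, in 3 ranges that did not overlap, with WT lowest and G245S highest. The increase was 0.24 ± 0.02 on the log2 scale in G245S (edgeR adjusted p = 9.9e-10) and 0.19 ± 0.02 in R273H (adjusted p = 6.7e-08). XRCC5, the larger Ku subunit, ranged from 726 to 769 CPM in the WT dishes, from 800.5 to 827 CPM in G245S and from 801 to 824 CPM in R273H. It rose by 0.13 ± 0.02 (adjusted p = 0.00014) and 0.12 ± 0.02 (adjusted p = 0.00025).

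XRCC6 (chr22:41621163-41664048), the smaller Ku subunit, had 1102, 1098 and 1142 CPM in WT, 1185, 1184 and 1196 CPM in G245S and 1102, 1107 and 1134 CPM in R273H. G245S was above both other groups, which shared one range. XRCC6 rose in G245S (0.09 ± 0.02, edgeR adjusted p = 0.0023) and had 0.00 ± 0.02 in R273H (adjusted p = 0.998). It has 5 annotated pseudogenes. LIG4, the ligase of the last step, had -0.21 ± 0.08 in G245S (adjusted p = 0.050323, just over the threshold, and 0.0223 without G245S dish 1) and -0.02 in R273H.

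Compared directly, G245S and R273H differed in 3 of the 42 genes, beside 2.59% of all genes called (1.86% higher and 0.732% lower in G245S) and 4.57% of those that average 100 counts or more. CHEK1 was lower in G245S than in R273H by a log2 difference of -0.13 ± 0.03 (edgeR adjusted p = 0.023), FANCL by -0.17 ± 0.04 (adjusted p = 0.023), and XRCC6 was higher by 0.09 ± 0.02 (adjusted p = 0.018). The dishes of the 2 mutants did not overlap for any of the 3. They did not overlap either for ATM, MDC1, TP53BP1, NBN, BRCA2, PALB2, RAD51C, XRCC2, BRIP1, PRKDC and LIG4, which were not called. Separate ranges of dishes were therefore not particular to the called genes. The calls were lost in several fits without 1 mutant dish, in which fewer of all genes were called as well. By edgeR, 0 of the 42 genes were called without G245S dish 1, G245S dish 2, R273H dish 1 or R273H dish 2 (8 or 9 genes at an unadjusted p under 0.05). Over all genes those fits called 162, 204, 222 and 233, beside 513 with every dish. Without R273H dish 3, 1 member (XRCC6) was called, beside 295 of all genes. Without G245S dish 3, 5 members were called, beside 712 of all genes. The 3 genes were still called in that fit, and RAD50 (-0.18, adjusted p 0.0143) and TOPBP1 (-0.14, adjusted p 0.0368) were added. The log2 differences of the 3 genes stayed between -0.12 and -0.14 for CHEK1, -0.15 and -0.18 for FANCL, and 0.09 and 0.10 for XRCC6 in the fits in which the call was lost. The median difference over the 42 genes was -0.04, and 0.00081 with the length and GC trend taken out.

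A second grouping follows background knowledge of S-phase expression rather than repair role. Of 15 members taken as E2F-linked from textbook knowledge (CHEK1, CLSPN, TOPBP1, BRCA1, BRCA2, BARD1, RAD54L, XRCC2, BLM, EXO1, FANCA, FANCD2, FANCI, BRIP1 and MSH6), 7 rose and 0 fell in G245S, with a median log2 fold change of 0.09, and 10 rose and 0 fell in R273H, with a median of 0.15. With the trend taken out, 9 were higher and 0 lower in each mutant. Over all genes in the main fit, 12.6% rose and 12.1% fell in G245S. For R273H these shares were 14.2% and 14.6%. Among genes averaging 100 counts or more, the range of all 15 members, 19.1% rose in G245S and 20.4% in R273H. The shares that fell there were 17.8% and 20.3%. With the trend taken out, 21.1% of genes rose in G245S and 21.3% in R273H, while 16.2% and 17.4% fell. The 15 members were picked with earlier results of these libraries known, and the counts are a description. The same holds for the absence of falling genes from the grouping, and a link to E2F was not tested. FANCC, MSH3, PMS2 and XRCC6, whose windows hold the E2F-type word, were not among the genes picked. The genes that fell were outside this grouping, namely FANCF, RAD51C, MRE11, RBBP8 and TP53BP1 in G245S and FANCF, RAD51C, MRE11, TP53BP1 and MDC1 in R273H. The E2F-type word of the promoter search was in 5 of 10 windows of genes higher in G245S and 4 of 12 of those higher in R273H, in 6 of 23 and 7 of 21 of those not called, and in 0 of 5 of those lower in either mutant. PRKDC, ATR and XRCC5, which rose in each mutant, were outside the grouping as well.

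The 42 genes are long: their coding regions run from 840 to 12384 nt with a median of 2638.5 nt, beside 1395 nt for the genes tested with a coding region, and 36 of the 42 exceed that median. Because long genes stood higher in the R273H and G245S libraries than in WT, the fit was repeated after removing from each library its dependence on coding length and GC content. In G245S the number called went to 23, with 15 higher and 8 lower, and the median was 0.05, beside 0.01 for all genes in that fit. Of the 13619 genes in it, 37.3% were called in G245S, 21.1% higher and 16.2% lower, against 24.7% of the 19820 genes in the fit with the trend. The 6 members added were TOPBP1 (0.09, edgeR adjusted p 0.0169), FANCB (0.17, 0.0292) and FANCI (0.07, 0.0336), all higher, and MDC1 (-0.06, 0.0229), LIG4 (-0.20, 0.0373) and ATRIP (-0.13, 0.0396), all lower. In R273H it stayed at 20, with 14 higher and 6 lower, and the median fell to 0.03 beside 0.01 for all genes, of which 38.7% were called, 21.3% higher and 17.4% lower. RBBP8 and FANCA gained a call in R273H and BLM and BRIP1 lost one. The rise of ATR (0.27 and 0.25), CHEK1 (0.13 and 0.22), MSH6 (0.20 and 0.19) and PRKDC (0.28 and 0.16) and the fall of RAD51C (-0.21 and -0.18) and MRE11 (-0.18 in each) were still called. Between the mutants, CHEK1 lost its call (-0.09, adjusted p 0.0665), FANCL and XRCC6 kept theirs, and PRKDC (0.11) and TP53BP1 (0.10) were called higher in G245S, beside 3.37% of all genes in that fit.

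**Figure D5:**
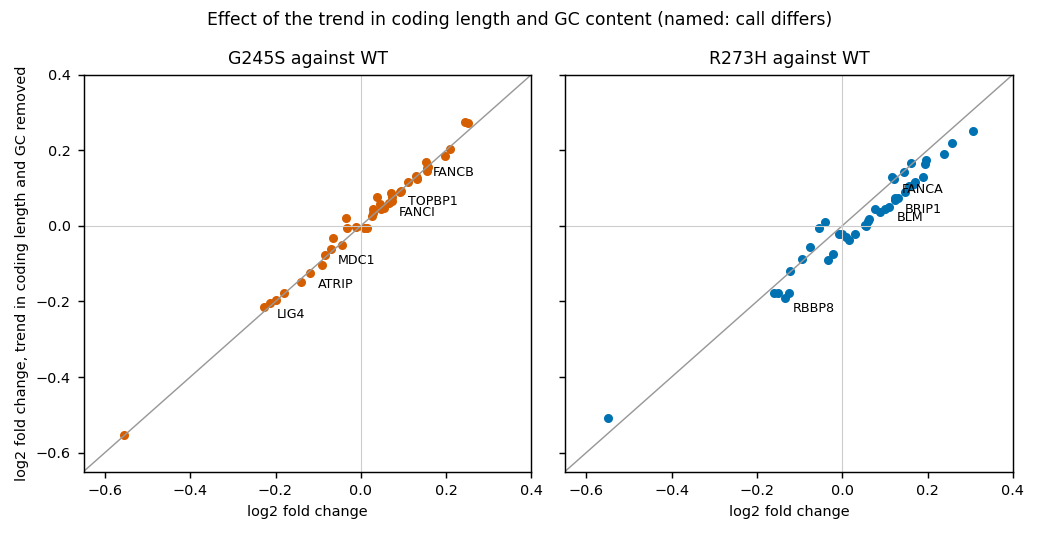
log2 fold change of the 42 genes against WT as measured (horizontal) and after removing each library's dependence on coding length and GC content (vertical), for G245S and R273H. Points near the diagonal did not move, and named genes are those whose call differs. In R273H most points lie below the diagonal, the median going from 0.07 to 0.03.

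Genes of the same pathways outside the 42 were counted in the same way, and their difference from the 42 was not tested. For scale, G245S had 12.1% of all tested genes called lower and 12.6% called higher. With R273H the lower share reached 14.6% and the higher share 14.2%. Genes averaging 100 counts or more had larger lower shares, 17.8% (G245S) and 20.3% (R273H). No related list was tested against these shares. Of 22 further recombination genes, 0 rose and 6 fell (27.3%) in G245S. In R273H, 1 rose and 4 fell (18.2%), or 1 and 3 with the trend taken out. That 18.2% lies between the R273H lower shares of 14.6% and 20.3%. RMI2, of the BLM complex, had -0.22 and -0.32 (edgeR adjusted p = 0.020 and 0.00065), and HELQ, a repair helicase, had -0.25 in each (adjusted p = 0.022 and 0.017). Of 13 further Fanconi and crosslink genes, 0 rose and 4 fell in G245S and 1 rose and 4 fell in R273H (2 and 3, and 0 and 3, with the trend taken out), among them FAAP24 (-0.51, adjusted p = 0.0068, and -0.32, adjusted p = 0.070) and REV3L, the catalytic subunit of polymerase zeta (-0.19, adjusted p = 0.041, and -0.30, adjusted p = 0.00075). Of 13 further genes of end joining, end processing and ligation, 0 rose in either mutant, 3 fell in G245S and 4 in R273H. LIG1, the replicative ligase, fell by 0.56 and 0.70 on the log2 scale (adjusted p = 7.1e-13 and 2.3e-15), with 121 CPM in WT against 82.2 and 74.6 CPM in the mutants, and APLF, an end joining scaffold, fell by 0.69 and 0.56 (adjusted p = 0.0027 and 0.0089).

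Of 23 further signalling and chromatin genes, 6 rose and 2 fell in each mutant (8 and 2 in G245S, and 6 and 3 in R273H, with the trend taken out). ETAA1, another activator of ATR, fell in G245S (-0.33, edgeR adjusted p = 0.0048) and had -0.07 in R273H (adjusted p = 0.58), and ABRAXAS1, of the BRCA1-A complex, rose in R273H (0.26, adjusted p = 0.033) and had 0.16 in G245S (adjusted p = 0.23). Of 2 further mismatch repair genes, PMS1 rose in R273H (0.17, adjusted p = 0.010) and had 0.11 in G245S (adjusted p = 0.13), and the other was not called (1 higher in each mutant with the trend taken out). Excision repair, with 25 genes, held the largest decreases of any repair list: DDB2 and XPC, damage sensors of nucleotide excision repair and known p53 targets, had log2 fold changes of -2.57 and -0.91 in G245S and -3.08 and -1.04 in R273H (adjusted p from 1.4e-27 to 1.3e-14). In that list 5 rose and 5 fell in G245S, and 4 rose and 7 fell in R273H (6 and 5, and 4 and 8, with the trend taken out).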

How the data were processed

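Ribo-seq was performed on 3 dishes for each of 3 groups. The deposited table holds expected counts, that is, estimated footprint counts per gene without scaling for depth or length, which the authors made from reads trimmed with Trim Galore and cutadapt, filtered for rRNA with SortMeRNA and aligned to GRCh38 with STAR, with UMI-tools and SAMtools also named. The counting tool, annotation release and handling of strand are not given in the sources used here. Between 61.5% and 63.7% of nonzero values were not whole, so reads shared by similar genes were divided by an estimate. Depth was 18.7 to 24.6 M counts per library. The dishes of a group were pooled at reverse transcription, and p-values measure only the spread between dishes.

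Rounded counts entered edgeR 4.0.16 under R 4.3.3 (TMM scaling, filterByExpr, glmQLFit with robust estimation, two-sided glmQLFTest) in 1 fit of 9 libraries with 6 residual degrees of freedom and a biological coefficient of variation of 2.58%. Calls required an adjusted p (Benjamini-Hochberg, 19820 genes) under 0.05. The scripts were tested on simulated data. Coordinates and coding length are from GENCODE v44 (GRCh38), which 62666 of 63241 genes (99.09%) matched, and promoters from RefSeq (GRCh38.p14). The trend fit removed splines (4 degrees of freedom) in coding length and GC content, fitted per library on 10886 coding genes. Alternatives were other scalings and filters, only the 6 libraries compared, each library left out, a replicate block, glmTreat with a minimum change of 1.2-fold, and DESeq2 1.42.0. No spike-in and no matched RNA-seq were used here, so that mRNA abundance and translation per mRNA are not separated.

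The 42 genes, the lists and the tests were chosen with earlier results of these data known. Values in every dish are given for ATM, ATR, CHEK1, CHEK2, BRCA1, BRCA2 and PRKDC, for every gene called between the mutants, and for the 5 called genes with the largest increase and the 5 with the largest decrease in each mutant. Of each related list, the 2 called genes with the largest log2 fold change averaged over the mutants are named, or 1 where only 1 was called. Some genes of the related recombination and mismatch repair lists are not reported here and were left out of the counts. MDM2 and CDKN1A check the labels.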

Additional observations from a re-analysis of the deposited data

Results flagged for a closer look

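CHEK1, FANCL and XRCC6 stood out because their effects in the 2 mutants differed in the direct test of G245S against R273H (edgeR's quasi-likelihood test with Benjamini-Hochberg adjustment, 3 dishes in each group). The log2 difference was -0.13 for CHEK1 (adjusted p = 0.023), -0.17 for FANCL (adjusted p = 0.023) and 0.093 for XRCC6 (adjusted p = 0.018). In CHEK1 the R273H dishes were higher than the G245S dishes, which were higher than WT. FANCL was apart from WT in R273H, and XRCC6 was apart from WT in G245S. Each call was lost when 1 of several mutant dishes was left out.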

How the results depend on the processing

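Over the alternatives, 2382 values for single genes were obtained, of which 0 changed sign while called; 2226 kept their side of the threshold, 109 were no longer called and 47 were newly called. Against WT, leaving out 1 library gave 12 to 17 genes called in G245S and 17 to 20 in R273H. Over all genes these fits called 3899 to 4850 in G245S and 4526 to 5829 in R273H. Of the 17 genes called in G245S, 10 were called in each of these fits (ATR, CHEK1, EXO1, FANCD2, MRE11, MSH6, PRKDC, RAD51C, XRCC5 and XRCC6), and of the 20 in R273H, 16 were (all but BLM, BRIP1, MRE11 and RAD54L). Leaving out WT dish 3 moved the median log2 fold change of the 42 genes most. Over these fits it ran from 0.032 (without WT dish 1) to 0.0647 in G245S and from 0.057 (without WT dish 1) to 0.102 in R273H. Between the mutants the count ran from 0 to 5, and over all genes from 162 to 712. With glmTreat and a minimum change of 1.2-fold, 0 genes were called in each of the 3 comparisons, with 1, 1 and 0 at an unadjusted p under 0.05 for G245S, R273H and the mutants compared, and over all genes 547, 693 and 3 were called. DESeq2 called 11 genes in G245S, 15 in R273H and 3 between the mutants, where 9 genes had no adjusted p, and over all genes 3079, 3573 and 343, beside 4900, 5707 and 513 with edgeR. The calls it lacked were BRCA1, FANCA, FANCF, FANCG, RAD54L and TP53BP1 in G245S and BLM, BRIP1, FANCF, MRE11 and RAD54L in R273H. Removing the length and GC trend moved the median in R273H to 0.0271 and between the mutants to 0.000811.

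Dish numbers are not stated to pair the dishes, and the correlation of deviations was 0.0421 to 0.229 for the 9 pairs of dishes with one number, 4 of them over 0.1, with each dish closest to its own number in 17 of 18 cases, a hint from the data only. With the replicate number as a block, 21 genes were called in G245S, 22 in R273H and 5 between the mutants (over all genes 5779, 6547 and 1262). The added calls were TOPBP1, MDC1, FANCI and LIG4 in G245S (adjusted p 0.0136 to 0.0324), RBBP8 and FANCA in R273H (0.0122 and 0.0348), and RAD50 and TOPBP1 between the mutants (0.0169 and 0.0448). With the block and the trend removed together, 24, 21 and 5 were called (over all genes 5313, 5492 and 683), and the median was 0.0265 in R273H and 0.000825 between the mutants. Depth limits FANCF most, at a mean count of 58.1.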
